A study of Mus musculus with 6 samples.

Results

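The complement genes examined here are 9 genes of the complement system that BV2 cells, an immortalised mouse microglial line, could use to make complement proteins or to sense them. They were taken by name from the 55401 genes of the count table: the C1q chain genes C1qa, C1qb and C1qc and the gene C4b of the classical pathway, the central component C3, the alternative pathway genes Cfb and Cfp, and the anaphylatoxin receptor genes C3ar1 and C5ar1. RNA was sequenced from BV2 cells given lipopolysaccharide (LPS), the endotoxin of Gram-negative bacteria, and from BV2 cells given vehicle, with 3 libraries in each group. The labels give no dose, no time of treatment and no statement on separate cultures, so the p-values reflect the scatter among these libraries, which may be technical. BV2 is a single transformed line, and no other genotype or agent is named for either group.

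Complement is a cascade of blood and tissue proteins. In the classical pathway C1q, built from chains of C1qa, C1qb and C1qc, binds antibody or dying-cell surfaces and leads to cleavage of C4 and C2, and the resulting enzyme cleaves C3. In the alternative pathway factor B (Cfb) bound to C3b forms the enzyme that cleaves more C3, and properdin (Cfp) stabilises it. The fragments C3a and C5a are read by the receptors C3ar1 and C5ar1, and in the brain microglia are a main source of C1q.

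The libraries held 49016002 to 55917868 estimated counts with LPS and 45969690 to 59023474 with Vehicle. Low values in them piled up at multiples of about 3.64 counts, so a count is not a read. Tnf, a cytokine gene induced by LPS, had 952, 1126 and 1025 CPM (counts corrected for library size) in LPS 1, 2 and 3, against 91.3, 103 and 101 CPM in Vehicle 1, 2 and 3. Every LPS library was above every Vehicle library. All 10 markers of macrophages and microglia were detected, with a summed level of 2186 to 2542 CPM in LPS libraries and 2570 to 2909 CPM in Vehicle libraries. Their levels were uneven, with a mean of 918 CPM with LPS and 959 CPM with Vehicle for Cd68. Aif1 (2.01 and 3.20 CPM) and Cx3cr1 (1.03 and 2.33 CPM) were low. The neuron marker Snap25 had means of 2.67 and 3.48 CPM, with 0 in LPS 1. Levels of different genes compare only per length. The longest transcripts were 0.875 kb for Aif1, 4.49 kb for Cx3cr1 and 4.88 kb for Snap25. Per kb, the mean of Snap25 was below that of Aif1 and above that of Cx3cr1 in both groups. Of 7 markers of resting microglia, Sall1 was at 0 in every library, and the summed level was 2.54 to 3.18 CPM in LPS libraries and 5.67 to 6.42 CPM in Vehicle libraries. Neuron markers summed to 1.66 to 10.5 CPM with LPS and 4.27 to 10.1 CPM with Vehicle, and of 30 markers of neurons, glia other than microglia, endothelium, fibroblasts, neutrophils and lymphocytes 13 could be tested. None of the 13 was called by edgeR or DESeq2, and 0 had an unadjusted edgeR p under 0.05.

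LPS 1 stood apart in its low counts. It had 688 of the tested genes at 0, against 325 in LPS 2, 303 in LPS 3 and 213 to 320 in the Vehicle libraries, and 433 of these were at 0 in LPS 1 alone. Of the 13 tested markers of other cell types 8 were at 0 in LPS 1, and at most 1 in any other library. Without LPS 1 the log2 fold change was -2.07 ± 0.36 for C1qb, -2.16 ± 0.44 for C1qc, -1.87 ± 0.49 for C4b, 2.0 ± 0.20 for C3, -0.57 ± 0.10 for Cfp and 0.67 ± 0.14 for C3ar1 (SE). These 6 genes were still called (largest edgeR adjusted p = 0.0361), and Cfb was not (1.76 ± 0.55, adjusted p = 0.0735).

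Of the 9 genes, 6 had a promoter sequence in RefSeq (build GRCm38.p6), which covers 250 bases before to 50 bases after the start. Of these 6, the promoters of C1qb, C1qc, C3, C3ar1 and Cfp are shown because these 5 genes passed the test of LPS against Vehicle. The C1qb and C1qc promoters are chr4:136886151-136886450 and chr4:136892865-136893164, the C3 promoter is chr17:57228087-57228386, the C3ar1 promoter is chr6:122856108-122856407 and the Cfp promoter is chrX:20931506-20931805, all on the minus strand. The motifs were chosen with the results known. Capitals mark matches on either strand to AGGAAG (the core bound by PU.1 and related ETS factors) or TTGCNNAA (a form of the C/EBP motif).
C1qb: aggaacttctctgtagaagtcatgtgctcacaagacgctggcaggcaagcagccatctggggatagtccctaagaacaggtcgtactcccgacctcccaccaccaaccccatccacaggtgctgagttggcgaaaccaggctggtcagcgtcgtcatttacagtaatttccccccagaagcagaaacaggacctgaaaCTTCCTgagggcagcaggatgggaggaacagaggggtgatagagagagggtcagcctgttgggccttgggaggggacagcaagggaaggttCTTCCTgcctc
C1qc: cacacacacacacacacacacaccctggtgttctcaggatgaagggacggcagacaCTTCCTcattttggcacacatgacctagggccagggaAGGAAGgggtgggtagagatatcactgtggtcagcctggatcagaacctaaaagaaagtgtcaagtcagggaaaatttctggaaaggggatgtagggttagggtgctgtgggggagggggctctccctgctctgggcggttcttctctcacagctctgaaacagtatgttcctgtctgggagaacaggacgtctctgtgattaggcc
C3: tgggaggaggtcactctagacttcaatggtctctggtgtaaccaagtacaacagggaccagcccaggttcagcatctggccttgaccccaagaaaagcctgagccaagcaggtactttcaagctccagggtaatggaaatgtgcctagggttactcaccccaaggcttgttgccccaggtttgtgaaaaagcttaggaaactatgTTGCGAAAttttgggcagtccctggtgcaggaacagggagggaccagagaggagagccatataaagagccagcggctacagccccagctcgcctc
C3ar1: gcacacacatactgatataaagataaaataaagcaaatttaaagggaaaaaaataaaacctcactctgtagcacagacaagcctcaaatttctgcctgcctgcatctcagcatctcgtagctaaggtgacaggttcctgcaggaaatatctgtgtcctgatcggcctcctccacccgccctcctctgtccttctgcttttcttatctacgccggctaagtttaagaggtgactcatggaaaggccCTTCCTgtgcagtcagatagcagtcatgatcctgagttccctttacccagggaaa
Cfp: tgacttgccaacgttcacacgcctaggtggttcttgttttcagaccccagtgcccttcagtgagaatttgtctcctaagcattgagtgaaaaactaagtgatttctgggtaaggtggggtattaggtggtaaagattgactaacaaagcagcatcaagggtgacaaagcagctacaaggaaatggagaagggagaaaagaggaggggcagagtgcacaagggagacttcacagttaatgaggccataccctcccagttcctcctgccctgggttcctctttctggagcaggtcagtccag
C1qb and C1qc each held 2 matches to AGGAAG and C3ar1 held 1, C5ar1, which was not called, held the most with 3, and C3 and Cfp held 0, while 35.4% of 32851 promoters of this length held at least 1. The C3 promoter held 1 match to TTGCNNAA, TTGCGAAA, beginning 45 bases before the start, against 10.8% of promoters with such a match. GGANTTTC, a core shared by forms of the NF-kB motif, was found once among the 6 promoters, in that of C5ar1, and 3.8% of all promoters held it. It was searched in place of a longer form, with a further G before it and C after it, which was tried first along with an interferon response element. Both had 0 matches in the 6 promoters, and 0.4% of all promoters held the longer NF-kB form and 3.4% the interferon response element. A match describes the letters in this window and is not a binding site, and where there is none, nothing follows about the factor.

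**Figure D1:**
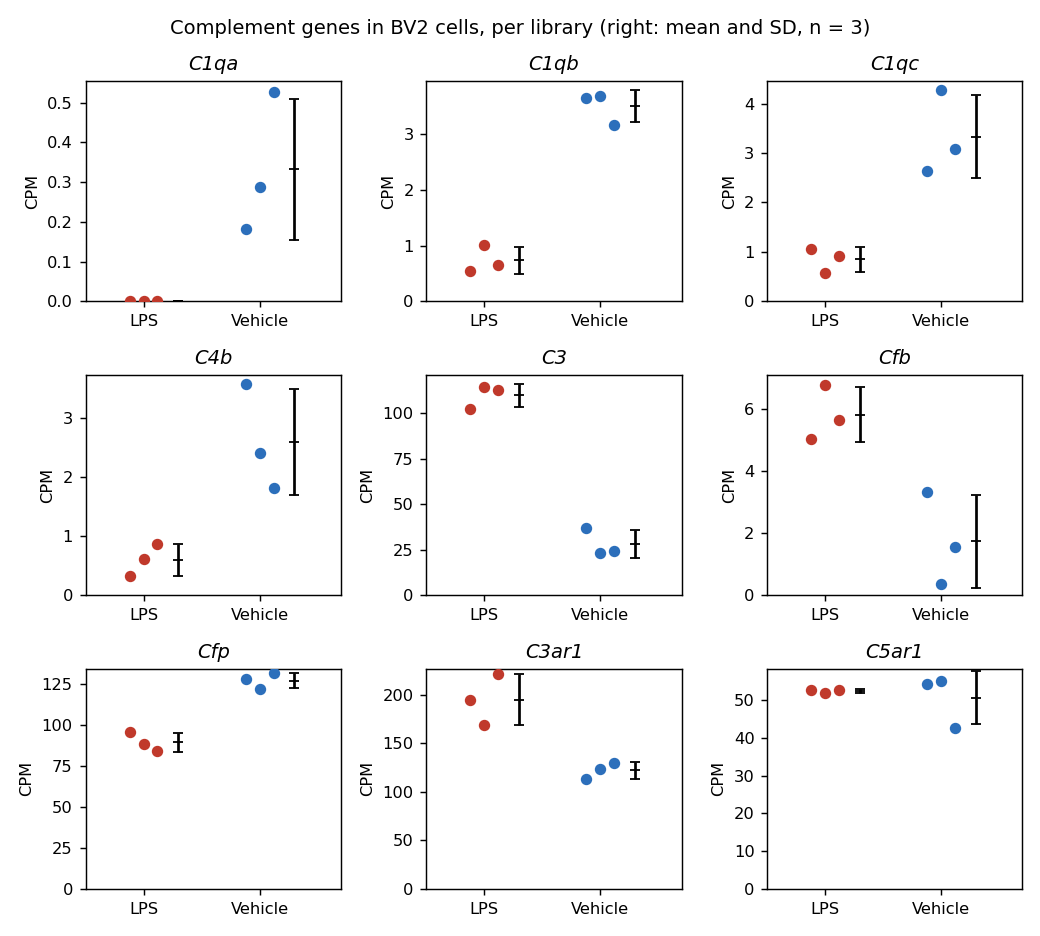
Level of each of the 9 complement genes in CPM (vertical axis, from 0) for each LPS library (left, red) and Vehicle library (right, blue), with mean and SD beside the points (n = 3). The libraries of the groups overlap for C5ar1 alone.

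Of the genes for classical initiation C1qb, C1qc and C4b were lower with LPS, C1qa was too low to test, and all 4 had few counts in both groups. C1qb (ENSMUSG00000036905), the B chain of C1q, had 0.54, 1.00 and 0.66 CPM in LPS 1, 2 and 3, against 3.65, 3.68 and 3.17 CPM in Vehicle 1, 2 and 3. Its LPS libraries all lay below its Vehicle libraries, and its 27 to 53 estimated counts per LPS library compare with 150 to 221 per Vehicle library. The log2 fold change of LPS over Vehicle was -2.24 ± 0.32 (SE; edgeR adjusted p = 0.00161), so the level with LPS was 21.1% of that with Vehicle.

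C1qc (ENSMUSG00000036896), the C chain, had 1.06, 0.57 and 0.92 CPM in LPS 1, 2 and 3, against 2.65, 4.27 and 3.08 CPM in Vehicle 1, 2 and 3. These groups did not overlap either, although Vehicle 2 stood above the other Vehicle libraries. The log2 fold change was -1.96 ± 0.36 (edgeR adjusted p = 0.00566).

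C1qa (ENSMUSG00000036887), the A chain, was listed at 0 in every LPS library and at 11, 14 and 25 counts in Vehicle 1, 2 and 3, or 0.18, 0.29 and 0.53 CPM. It did not pass the filter on low counts and was not tested with the others. A floor of 3 steps per library (10.9 counts, 0.214 CPM in LPS libraries) lay 1.55-fold below its mean of 0.332 CPM with Vehicle. Vehicle 1, at 0.18 CPM, was itself below that floor, so 1.55-fold is not a firm bound on the change. When no filter was applied, C1qa had an edgeR adjusted p = 0.0645. The C1q genes lie next to each other on the same strand in the GENCODE M21 annotation, and C1qa held 4.98% to 16.7% of the counts of C1qb in the Vehicle libraries.

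C4b (ENSMUSG00000073418), which encodes complement C4, the protein cleaved after C1q binds, had 0.32, 0.61 and 0.86 CPM in LPS 1, 2 and 3, against 3.57, 2.40 and 1.82 CPM in Vehicle 1, 2 and 3. All LPS libraries were below all Vehicle libraries, and both groups spread widely around their means. The log2 fold change was -2.16 ± 0.45 (edgeR adjusted p = 0.0101). C4a is a near-identical copy of C4b, which makes the value of C4b uncertain, since reads of one may be counted for the other. C4a averaged 0.156 CPM in LPS and 0.277 CPM in Vehicle, and the exchange of reads was not tested.

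The summed level of the 4 classical genes was 1.92 to 2.44 CPM in LPS libraries and 8.59 to 10.6 CPM in Vehicle libraries. The macrophage marker Csf1r (87.0 ± 0.75 CPM with LPS and 232 ± 5.16 CPM with Vehicle, SD, n = 3) was lower as well, as were Laptm5 and Tyrobp, while Adgre1 was higher (edgeR adjusted p of at most 0.0178 for these 4). The other 6 of the 10 macrophage and microglia markers were not called, with log2 fold changes from -1.20 (Cx3cr1) to 0.24 (Fcer1g). Of the 7 markers of resting microglia 4 were tested. P2ry12 (-2.78 ± 0.73, edgeR adjusted p = 0.0194) and P2ry13 (-2.53 ± 0.41, edgeR adjusted p = 0.00286) were lower, both with low counts. Gpr34 (-2.27 ± 0.80) and Tmem119 (0.05 ± 0.29) were not called. The earlier quasi-likelihood method of edgeR did not call P2ry12 (adjusted p = 0.105). The part of the markers in the values of the classical genes was not tested. In bulk RNA fewer cells of a type and less RNA per cell cannot be told apart.

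C3, the component on which all pathways meet, was higher with LPS. C3 (ENSMUSG00000024164) had 102, 114 and 113 CPM in LPS 1, 2 and 3, against 37.0, 23.2 and 24.1 CPM in Vehicle 1, 2 and 3. The lowest LPS library was well above the highest Vehicle library, Vehicle 1. The log2 fold change was 1.96 ± 0.18 (edgeR adjusted p = 0.000204), a 3.89-fold higher level.

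The alternative pathway genes went in opposite directions. Cfp (ENSMUSG00000001128), properdin, had 95.7, 88.2 and 84.4 CPM in LPS 1, 2 and 3, against 128, 122 and 132 CPM in Vehicle 1, 2 and 3. The groups did not overlap, and the spread within each was small. Its log2 fold change was -0.51 ± 0.09 (edgeR adjusted p = 0.00423), so the level with LPS was 70.3% of that with Vehicle.

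Cfb (ENSMUSG00000090231), factor B, had 5.03, 6.76 and 5.64 CPM in LPS 1, 2 and 3, against 3.31, 0.35 and 1.54 CPM in Vehicle 1, 2 and 3. The LPS libraries were close to each other and above all Vehicle libraries, which differed widely among themselves. The log2 fold change was 1.67 ± 0.48 (edgeR adjusted p = 0.0412). That call held without Vehicle 1, with a log2 fold change of 2.63, and was lost without any other library, with 1.21 without Vehicle 2. It was also lost with the earlier quasi-likelihood method of edgeR, which was the first fit run on these data (log2 fold change 1.74 ± 0.68, adjusted p = 0.123). Of 16 alternatives that tested Cfb alone 8 called it, with adjusted p-values between 0.0105 and 0.128 (0.0893 in the fit blocked by replicate number).

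The low value of Cfb in Vehicle 2 came with counts on an overlapping gene. Gm20547, an annotated read-through gene on the same strand that joins C2 and Cfb, held 0, 14 and 4 counts in LPS 1, 2 and 3, against 0, 94 and 0 counts in Vehicle 1, 2 and 3. Cfb itself held 251, 357 and 275 counts in LPS 1, 2 and 3, against 200, 17 and 73 counts in Vehicle 1, 2 and 3. Vehicle 2 was thus the library in which Gm20547 was highest and Cfb lowest. Whether reads of one were assigned to the other was not tested.

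When both genes were summed, an alternative chosen after seeing the data, the level was 5.03, 7.03 and 5.72 CPM in LPS 1, 2 and 3, against 3.31, 2.28 and 1.54 CPM in Vehicle 1, 2 and 3. The summed log2 fold change was 1.29 ± 0.29 (edgeR adjusted p = 0.0144), smaller than that of Cfb alone and with a smaller SE, and the earlier edgeR method gave an adjusted p = 0.0225. It stayed under 0.05 in 4 of the 6 fits that left out a library. The exceptions were Vehicle 2 (adjusted p = 0.0586) and LPS 2 (adjusted p = 0.0557).

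**Figure D2:**
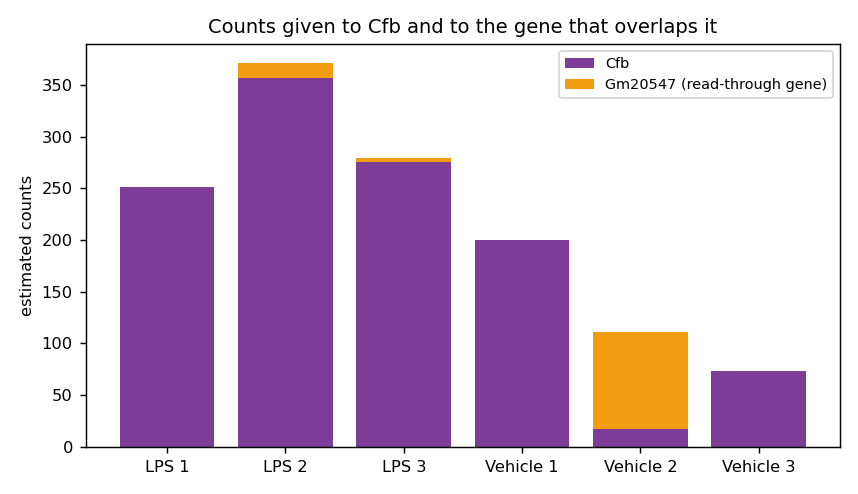
Estimated counts (vertical axis) given to Cfb (purple) and to Gm20547, the read-through gene that overlaps it (orange), in each LPS and Vehicle library. Vehicle 2 has 94 of its 111 counts on Gm20547, and in the other 5 libraries Cfb holds most or all of them.

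Of the receptor genes C3ar1 was higher with LPS and C5ar1 was not called. C3ar1 (ENSMUSG00000040552), the receptor for C3a, had 195, 169 and 222 CPM in LPS 1, 2 and 3, against 113, 124 and 130 CPM in Vehicle 1, 2 and 3. All LPS libraries were above all Vehicle libraries, and the log2 fold change was 0.68 ± 0.12 (edgeR adjusted p = 0.00399), a 1.60-fold higher level. C5ar1 (ENSMUSG00000049130), the receptor for C5a, had 52.6, 51.7 and 52.6 CPM in LPS 1, 2 and 3, against 54.3, 54.9 and 42.5 CPM in Vehicle 1, 2 and 3. These groups overlapped, and the log2 fold change of 0.05 ± 0.12 (edgeR adjusted p = 0.807) was smaller than its SE.

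Ratios of counts within a library do not depend on how libraries are scaled. These 3 ratios were chosen after the values of the genes had been seen. The ratio of C3ar1 to C5ar1 was 3.71, 3.26 and 4.21 in LPS 1, 2 and 3, against 2.08, 2.25 and 3.05 in Vehicle 1, 2 and 3. The ratio of Cfb to Cfp was 0.0525, 0.0767 and 0.0668 in LPS 1, 2 and 3, against 0.0258, 0.00286 and 0.0117 in Vehicle 1, 2 and 3. The ratio of C3 to C4b averaged 213 in LPS libraries and 11.1 in Vehicle libraries. All 3 ratios were higher in every LPS library than in any Vehicle library. The two-sided exact permutation test gave p = 0.1 for each, also 0.1 adjusted over the 3 ratios, which is the smallest p that 3 against 3 libraries allow.

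By role and with the reported fit, 3 of 4 classical genes were called lower and C1qa was not tested, C3 was called higher, Cfb was called higher and Cfp lower, and of the receptors C3ar1 was called higher and C5ar1 was not called. Of the 8 genes tested, 3 were higher (2 with the earlier edgeR method, without Cfb) and 4 lower, where 12.7% and 10.9% of all 16371 tested genes were (23.6% either way). With scaling by total counts alone, 1650 of all genes were higher and 2258 lower, against 2082 and 1782 with TMM, and the calls of these 8 genes were the same. Of the 8 tested, 7 had groups that did not overlap, against 40.8% of all tested genes. In 3 of these every LPS library was above every Vehicle library (20.8% of all tested genes) and in 4 every LPS library was below (20.0%). Fitted values of the 8 had a median of -0.23 on the log2 scale, against -0.02 over all tested genes. C1qb, C1qc and C4b held at least 16 counts in every library and so met the minimum count of 10 in both groups, while C1qa did not pass and is not among the 8. The genes were chosen with results of these data known, so the counts are a description. Among all tested genes with a mean of 1 to 5 CPM, the range of C1qb, C1qc, C4b and Cfb, 8.48% were called higher and 7.21% lower. At 50 CPM and above, the range of C3, Cfp, C3ar1 and C5ar1, 18.4% were called higher and 16.4% lower. Both ranges were added after seeing the data.

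**Figure D3:**
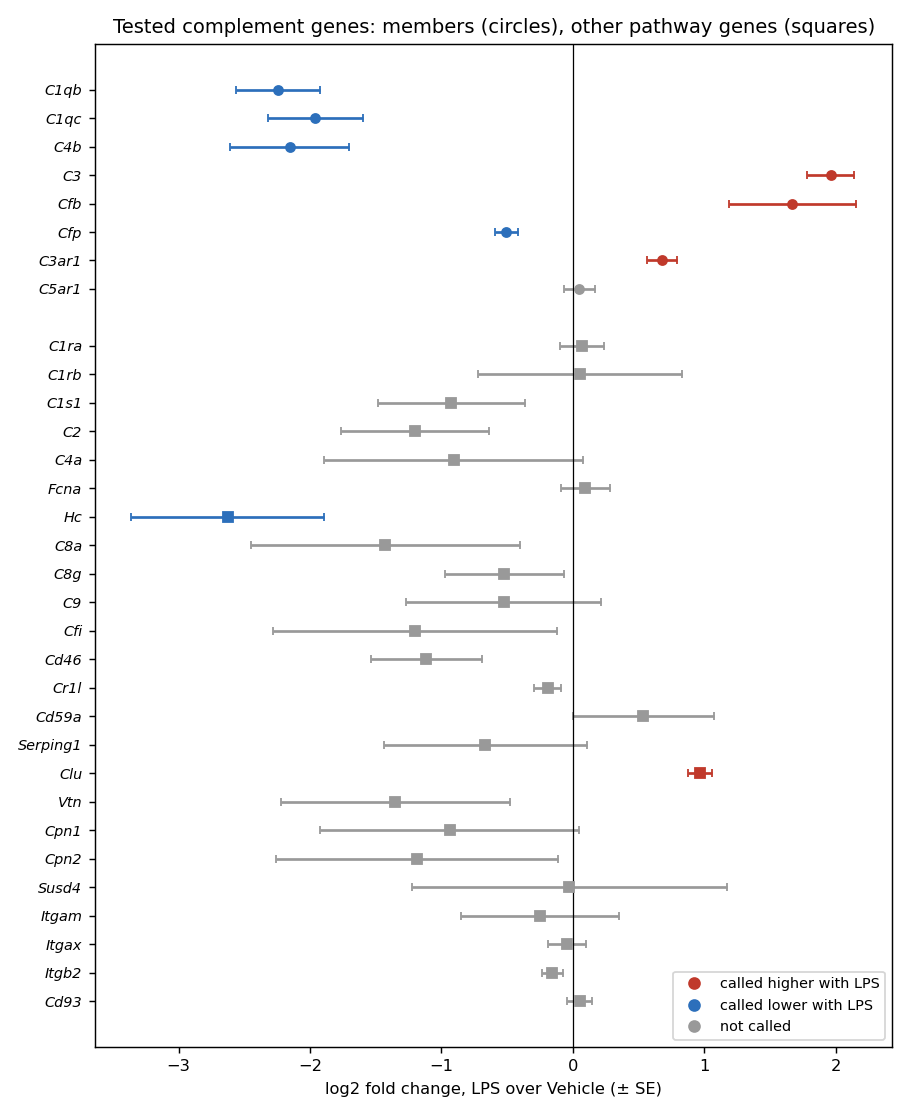
Log2 fold change of LPS over Vehicle with its SE (horizontal axis) for the 8 tested complement genes (circles) and the 24 other tested genes of the pathway (squares), coloured by the edgeR call. C3, Cfb, C3ar1 and Clu are called higher, and C1qb, C1qc, C4b, Cfp and Hc lower.

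Other genes of the pathway were taken from a list of 44: 14 of the classical and lectin pathways, 1 of the alternative pathway, 7 of the terminal pathway, 15 regulators and 7 receptors. Of these 24 were tested, 1 was higher, 1 was lower and 22 were not called, while 8 were at 0 in every library. The median fitted value of the 24 was -0.52 on the log2 scale, and 12 of the 22 that were not called averaged under 1 CPM with LPS. LPS 1 had 7 of the 24 at 0, among them Hc, and every other library had at most 1. None of 6 tested classical and lectin genes was called, among them C1ra, a protease of the C1 complex, with 23.3 ± 3.94 CPM in LPS and 22.2 ± 3.10 CPM in Vehicle (SD, n = 3). Of the 4 tested receptor genes none was called. In both lists 0 genes had an unadjusted edgeR p under 0.05, and DESeq2 called 0. The integrin gene Itgam, a chain of complement receptor 3 singled out after its values were seen, had 42.9, 186 and 249 CPM in LPS 1, 2 and 3, against 222, 190 and 156 CPM in Vehicle 1, 2 and 3, with LPS 1 apart from all others.

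Of 10 regulators tested, 1 was called, higher with LPS. Clu, or clusterin, an inhibitor of the terminal complex, had 197, 207 and 202 CPM in LPS 1, 2 and 3, against 111, 92.6 and 106 CPM in Vehicle 1, 2 and 3. The log2 fold change was 0.97 ± 0.09 (edgeR adjusted p = 0.000267), with groups far apart.

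In the terminal pathway Hc, the mouse gene for C5, had 0, 0.15 and 0.23 CPM in LPS 1, 2 and 3, against 0.71, 0.62 and 1.06 CPM in Vehicle 1, 2 and 3. It was low in both groups, with 0 to 11 counts per LPS library and 30 to 50 per Vehicle library, so it passed the filter through its Vehicle libraries. Its log2 fold change was -2.63 ± 0.74 (edgeR adjusted p = 0.0263), and the call held without LPS 3 and was lost without any other library. The earlier edgeR method did not call Hc either (adjusted p = 0.123), so that it called 0 of the other pathway genes lower and Clu alone higher.

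Compared per kb of the longest annotated transcript, Cfp was the most abundant of the 9 in both groups, whereas without length it was in place 3 with LPS, after C3ar1 and C3. With LPS the order was Cfp (54.7 ± 3.50 CPM per kb, SD, n = 3), C3ar1 (45.3 ± 6.15), C3 (21.4 ± 1.26), C5ar1 (20.6 ± 0.20), Cfb (2.11 ± 0.32), C1qc (0.707 ± 0.211), C1qb (0.674 ± 0.222), C4b (0.111 ± 0.050) and C1qa at 0. Neighbours in this order were separate in every library except C3 with C5ar1 and C1qc with C1qb. Cfp and C3ar1 were nearly equal in LPS 3 (51.60 and 51.47 CPM per kb). With Vehicle the order was Cfp (77.7 ± 2.95 CPM per kb), C3ar1 (28.4 ± 1.99), C5ar1 (19.9 ± 2.76), C3 (5.47 ± 1.51), C1qb (3.22 ± 0.26), C1qc (2.77 ± 0.70), Cfb (0.630 ± 0.541), C4b (0.483 ± 0.166) and C1qa (0.320 ± 0.171). Here C1qb overlapped C1qc, Cfb overlapped C4b, and C4b overlapped C1qa. C3 was thus in place 3 with LPS and in place 4 with Vehicle, where C5ar1 stood above it in every library, and Cfb was in place 5 with LPS and 7 with Vehicle.

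**Figure D4:**
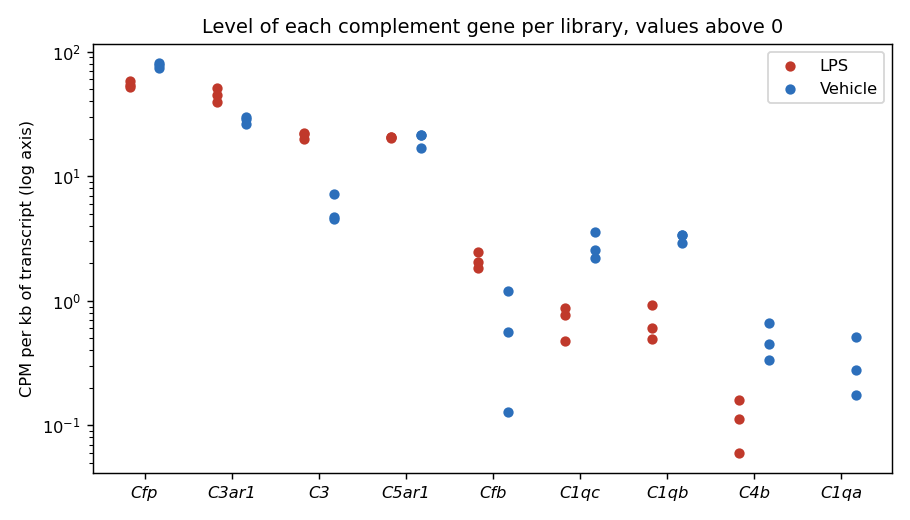
CPM per kb of transcript (log axis) of the 9 complement genes in each LPS (red, left of each pair) and Vehicle (blue) library, in the order of their mean with LPS. C1qa has no LPS points because it is listed at 0 there.

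The profile of each tested gene over the 6 libraries was compared with that of every other tested gene, as the root mean square difference of log2 CPM after each gene was centred on its own mean. This measure mostly follows the difference between the groups. Among the complement genes, C4b was 0.43 from C1qb and C1qc was 0.57 from C1qb. Cfp was 0.32 and C3ar1 was 0.36 from C5ar1, and Cfp was 0.61 from C3ar1. C3 was 0.73 from C3ar1 and 0.76 from Cfb. Over all tested genes with a symbol, predicted gene names left out, those nearest to C1qb were Efr3b, Cyp2s1 and Mamdc2 (0.22 to 0.26), and those nearest to C1qc were Slc8a1, Slc13a3 and Meis1 (0.19 to 0.21). Nearest to C4b were Tmem91, Sardh and Upb1 (0.19 to 0.30). C3 had Cntnap1, Ksr1 and Pkn3 (0.15 to 0.17) and Cfb had Map3k7cl, Rapgef3 and Clec4a1 (0.29 to 0.41). Cfp was closest to Ctnnb1, Hdhd5 and Aven (0.04 to 0.05), C3ar1 to Trio, Zan and Fbxw7 (0.04 to 0.06) and C5ar1 to Rps6ka4, Mtif2 and Kif1b (0.04 to 0.05).

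**Figure D5:**
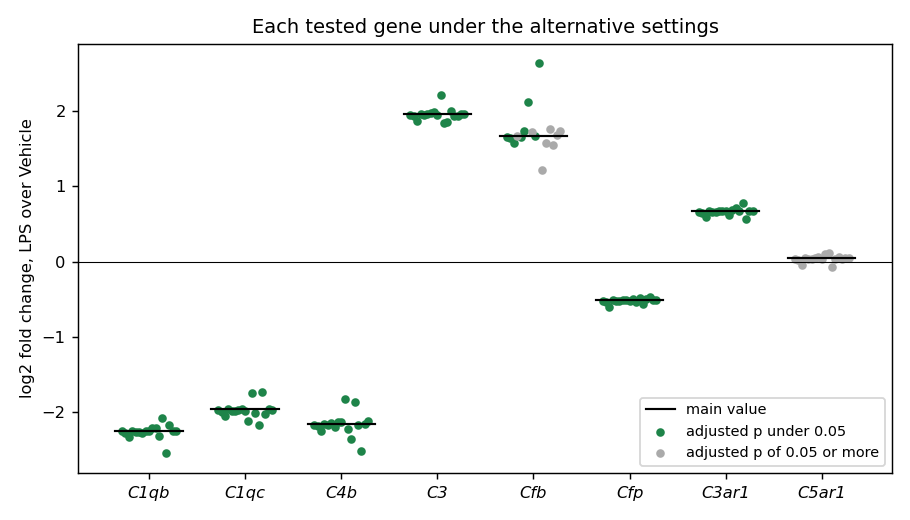
Log2 fold change of LPS over Vehicle (vertical axis) of the 8 tested complement genes under each of 17 alternative settings (16 for Cfb) (points, green where the adjusted p is under 0.05 and grey otherwise), with the reported value as a line. All points of C1qb, C1qc, C4b, C3, Cfp and C3ar1 are green, Cfb has 8 green points of 16, and C5ar1 has none. Among the 17 is the sum of Cfb with Gm20547, which alters the counts of no other gene shown.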

How the data were processed

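Poly(A)-enriched RNA of BV2 cells (3 LPS and 3 Vehicle libraries) was prepared with the NEBNext Ultra kit and sequenced on an Illumina NovaSeq, per the labels' protocols. Nothing says that the kit marked the strand. The deposited values are expected counts (estimated counts per gene), made by the authors. The tools named in the submitters' processing notes are StringTie 1.3.1, HISAT2, DESeq2 and Bowtie2 2.2.8, with no order or role. Neither build nor annotation is named there. All values were whole numbers already.

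Symbols were matched by Ensembl identifier for 55141 of 55401 genes, and lengths, neighbours and overlaps came from GENCODE M21. All 6 sample columns were mapped by name and 0 were left unmapped. Genes were tested with edgeR 4.0.16 (R 4.3.3): filterByExpr (minimum count 10, minimum total 15), TMM scaling, the two-sided quasi-likelihood F-test of edgeR version 4 with robust estimates, and Benjamini-Hochberg adjustment over 16371 genes, called under 0.05. TMM also scaled the CPM, and a prior count of 2 was added for log2 CPM. The SE is the size of the log2 fold change over the square root of F. The first fit run on these data used the earlier edgeR quasi-likelihood method, with dispersions estimated beforehand, and called 3550 genes and neither Cfb nor Hc. The version 4 method was made the reported fit after that result was seen, because it gave the 3864 calls of an earlier analysis of these data, and the earlier method is kept as an alternative. Alternatives also used DESeq2 1.42.0 and limma 3.58.1, other scalings and filters, a replicate block, division by the step, and leaving out each library. Figures were drawn with matplotlib 3.10.9.

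The members and gene lists were chosen with earlier results of these data known. A regulator and a marker on those lists are not reported here and are left out of the lists' counts. Named were all 9 members, the other pathway genes that were called, Tnf, and Gm20547, which overlaps Cfb. Also named were the 3 genes most similar to each tested member (predicted gene names left out). The microRNA genes Mir6972, which overlaps Cfb, and Mir6978, which overlaps C3, held at most 10 and 1 counts in any library. The floor and the counts cover counting error only. On simulated data with 15736 genes tested, 4 of 50 genes changed 1.5-fold, 25 of 50 changed 2-fold and 47 of 50 changed 4-fold were recovered. Of those set to 0.5-fold, 25 of 50 were recovered. Of 115 calls 14 were false, more than the nominal share. With the earlier method on the same simulated data 9 of 107 calls were false. Only 50 genes were changed at each fold, while 23.6% of all tested genes were called in the real data. The simulated rates may therefore not apply to the real comparison.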

Additional observations from a re-analysis of the deposited data

How the results depend on the processing

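C1qb, C1qc, C4b, C3, Cfp and C3ar1 kept their direction and an adjusted p under 0.05 in all 17 alternatives, with a largest adjusted p of 0.0402, for C4b. Among the 17 is the sum of Cfb with Gm20547, which left the counts of these genes as they were and so was no test of them. C5ar1 was called in none (smallest adjusted p = 0.658), and its log2 fold change was -0.040 with total counts only and between -0.067 and 0.11 when 1 library was left out. Cfb was not called with no filter (log2 fold change 1.67, edgeR adjusted p = 0.0577) or with a block for the replicate number (log2 fold change 1.73, edgeR adjusted p = 0.0893). Nor was it called with the earlier edgeR method, the first fit run on these data (log2 fold change 1.74, adjusted p = 0.123). Its log2 fold change was 1.21 to 2.63 when 1 library was left out. That range ran from 1.21 without Vehicle 2 to 2.63 without Vehicle 1, and the call held in 1 of the 6 fits. More genes were tested with no filter, and fewer residual degrees of freedom were left by the block and by leaving out a library. Whether these differences led to the lost calls of Cfb was not tested.

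Deviations of libraries with the same replicate number had correlations of 0.07, 0.05 and 0.06. Libraries with different numbers were not compared in this way, so these values cannot decide whether the numbers pair libraries. The replicate block changed the call of no member but Cfb. The difference of C1qa in log2 CPM was -3.14, -1.70 after division by the step and -3.42 to -2.81 without 1 library, and it depends on the prior count. Leaving out 1 library gave 2344 to 4535 changed genes (1291 to 2450 higher, 1053 to 2085 lower), against 3864 with all (2082 higher, 1782 lower). The lowest counts were those without Vehicle 2, and 1150 and 1153 genes were lower without Vehicle 1 and without LPS 2. The number of members called higher was 2 to 3, and 0 to 1 of the other pathway genes were lower when 1 library was left out. With the stricter filter (1 CPM in at least 3 libraries) Hc did not pass and was not tested, and none was lower. None was lower either, against 1 (Hc), with limma voom, division by the step or the earlier edgeR method (0 each, with an Hc adjusted p = 0.123 for the last). That method called 3550 genes (1940 higher, 1610 lower). Without length C3ar1 was in place 1, C3 in place 2 and Cfp in place 3 with LPS, and C4b was in place 7 and Cfb in place 8 with Vehicle. Of 24 names of most similar genes 14 were shared with a search among genes of at least 5 CPM. Total counts only gave a median of -0.10 over all genes. No LPS library held more than 53 counts of C1qa, C1qb, C1qc, C4b or Hc.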
